A study of Mus musculus with 4 samples.

Results

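B220 cells of the bone marrow were compared between Mef2c knockout (KO) and wild-type (WT) mice, with 1 array a genotype, across every gene that the array could measure. Members were chosen as the genes whose probe was well above background on at least 1 of the 2 marrow arrays, which were 20853 of 27729 named genes or transcripts. The study held 4 Agilent arrays of total RNA, 1 each for marrow and spleen of both genotypes, and the spleen arrays appear below only beside genes already described. Cells were taken fresh from naive mice. The WT animals were C57BL/6, and the KO animals are labelled only by the allele. The labels do not say which exons were removed, whether the deletion was driven by a Cre transgene, how B220 cells were isolated, how many animals were pooled, or their age and sex. With 1 array a group there is no replicate check, so every difference is a value for these arrays, given with no test, and animals, labelling and isolation cannot be told apart from genotype.

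Mef2c belongs to the MADS box transcription factors, which bind an AT-rich element in promoters and enhancers and recruit either class IIa histone deacetylases or coactivators. In the B lineage it acts downstream of antigen receptor and stress kinase signals. Marrow B220 cells span the stages at which the heavy chain and then the light chain genes are joined, up to newly formed B cells that express surface immunoglobulin. B220 is a form of the phosphatase CD45 and is also found on some cells outside the B lineage.

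Levels are log2 processed signals relative to the 75th percentile of gene spots on the same array, which was a signal of 1008 for marrow KO and 961 for marrow WT. Differences are log2 values, KO minus WT, so that 1 is 2-fold. Feature Extraction's own error of such a difference had a median of 0.20, and repeated spots of a probe had a median SD of 0.07 on either marrow array. Both errors cover the array and not the animals.

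Mef2c itself was not lower on the marrow KO array. Its brighter probe, on chromosome 13 at 83802754 to 83802813 of build mm9, gave a signal of 5511 for KO and 4218 for WT in the marrow, and of 11838 for KO and 8534 for WT in the spleen. Its dimmer probe, at 83717123 to 83717182, had signals of 28.5, 21.2, 127.9 and 363.6 in the same order. These signals are given before scaling. The scaled marrow difference was 0.32, with an array error of 0.20, for the brighter probe. For the dimmer probe it was 0.36, with an array error of 0.36, so it is about as large as its error. In the spleen the scaled differences were 1.37 for the brighter probe and -0.61 for the dimmer, so these probes ran in opposite directions there. A probe outside the removed part says nothing about the deletion, and the genotypes below are those of the labels.

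The B lineage identity of the isolates was visible on both arrays. All 20 surface and identity genes of the lineage were well above background on either array, among them the signalling adaptor Blnk (7.66 on KO and 7.41 on WT) and the receptor chain Cd79b (7.43 and 7.77). Of these 20 genes 18 lay below WT and 2 above it, Blnk among the 2. Past 2-fold were 7 of the 20, all lower, led by Fcer2a (-2.20 and 0.85) and Cd22 (0.65 and 3.08). The median of the 20 was -0.69. Over all genes 8.41% lay at least 2-fold above WT, 4.86% below it and 13.3% in either direction. Genes of pro-B and pre-B cells leaned the other way, since 7 of 23 were higher and 1 was lower, and their median was 0.62. Genes of other cell types moved as well. Of 19 measured neutrophil markers 18 were higher and 0 lower, their median was 2.52, and their summed level was 1677 on KO and 487 on WT in units of the 75th percentile. Platelet markers were higher for 8 of 13 genes (summed level 23.3 and 7.07), stromal and endothelial markers for 13 of 20 (70.4 and 38.5), and osteoclast and bone genes for 9 of 20 (52.8 and 19.5). Monocyte and macrophage markers were mixed, with 3 of 18 higher, 1 lower and a median of 0.15, and much of their summed level (85.8 and 31.8) came from Ly6c2 (5.73 and 2.85), which has a near-identical copy. T cell markers were mixed too, with 6 of 17 higher, 1 lower and a median of 0.02 (13.6 and 10.9), and 3 to 6 were higher across scalings and background correction, while plasma cell markers were lower for 3 of 12 and higher for 0 (87.1 and 72.1). None of the neutrophil, platelet, stromal or macrophage markers was below background on either array. The part of these cell markers in the differences that follow was not tested, and in bulk RNA fewer cells of a type cannot be told apart from less RNA per cell.

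Promoters are shown first for the genes that carry the element Mef2c binds, since the comparison is of its knockout. Promoters of 300 bases, from 250 before to 50 after the start, were taken from RefSeq on build GRCm38.p6 for 12979 measured genes. The MEF2 element was found on either strand in 270 of them, or 2.08%. A match in the letters is a description and not a binding site. Of these 270 genes 15 lay at least 2-fold above WT and 14 below it, or 10.7% in all, and their median was -0.13. Of all 12979 genes with a promoter 1205 lay above and 465 below, or 12.9% in all, and their median was -0.01. The share with the element was 3 of 50 (6%) among genes at least 4-fold lower and 4 of 395 (1.01%) among genes at least 4-fold higher. Other motifs, given below, also had a larger share among these 50 promoters than among all, each in few promoters. A share above that of all promoters was thus not particular to the MEF2 element. The 3 lower genes with the largest measured differences are printed, with the element in capitals. They were Pla2g2d, a secreted phospholipase A2 (chr4:138775485-138775784, plus strand), Cd22, a sialic acid-binding protein that restrains antigen receptor signals (chr7:30878979-30879278, minus strand), and Ms4a4d, a membrane protein of the family of the B cell antigen CD20 (chr19:11536544-11536843, plus strand).
Pla2g2d: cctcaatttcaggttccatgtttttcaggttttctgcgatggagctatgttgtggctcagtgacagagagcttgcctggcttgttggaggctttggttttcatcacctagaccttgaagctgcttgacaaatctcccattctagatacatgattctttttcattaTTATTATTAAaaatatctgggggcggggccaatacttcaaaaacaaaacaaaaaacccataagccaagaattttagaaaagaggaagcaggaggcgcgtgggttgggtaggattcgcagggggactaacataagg
Cd22: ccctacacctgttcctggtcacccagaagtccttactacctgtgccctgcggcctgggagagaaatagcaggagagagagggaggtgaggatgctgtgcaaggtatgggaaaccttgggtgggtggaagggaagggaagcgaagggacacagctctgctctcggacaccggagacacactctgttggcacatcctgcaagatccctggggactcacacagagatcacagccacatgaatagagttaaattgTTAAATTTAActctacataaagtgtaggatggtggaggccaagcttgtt
Ms4a4d: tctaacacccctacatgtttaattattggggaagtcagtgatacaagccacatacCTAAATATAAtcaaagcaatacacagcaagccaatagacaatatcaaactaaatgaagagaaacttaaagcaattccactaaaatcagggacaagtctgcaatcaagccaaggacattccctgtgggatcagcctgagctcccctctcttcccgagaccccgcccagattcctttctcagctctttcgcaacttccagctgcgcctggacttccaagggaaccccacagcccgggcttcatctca

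Pla2g2d differed by -2.46, from a level of -0.21 on WT to -2.67 on KO. Cd22 stood at 0.65 and 3.08, a difference of -2.43, and its other probe differed by -2.81. Ms4a4d stood at -2.51 and -0.29, a difference of -2.22, but was 1.30 higher on spleen KO than on spleen WT. The element began before the start of transcription in Pla2g2d and Ms4a4d and just after it in Cd22. The 2 genes highest on KO among those with the element are printed beside them, to show that it was found in genes of both directions. They were the secreted serine protease gene Prss23 (chr7:89527138-89527437, minus strand), at 0.47 on KO and -3.46 on WT, and the tight junction gene Cldn1 (chr16:26371790-26372089, minus strand), at -2.13 and -5.34.
Prss23: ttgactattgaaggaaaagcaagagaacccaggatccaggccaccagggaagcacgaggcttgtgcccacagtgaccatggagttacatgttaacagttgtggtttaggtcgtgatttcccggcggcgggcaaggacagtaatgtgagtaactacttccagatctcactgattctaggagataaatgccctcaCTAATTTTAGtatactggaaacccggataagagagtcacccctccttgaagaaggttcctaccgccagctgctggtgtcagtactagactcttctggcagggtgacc
Cldn1: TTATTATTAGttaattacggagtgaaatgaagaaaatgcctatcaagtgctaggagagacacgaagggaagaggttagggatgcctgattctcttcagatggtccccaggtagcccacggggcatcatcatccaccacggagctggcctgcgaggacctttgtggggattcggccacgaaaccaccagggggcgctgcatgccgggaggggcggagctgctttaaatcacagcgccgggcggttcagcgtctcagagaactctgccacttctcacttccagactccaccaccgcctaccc

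Other motifs differed in share between the genes far apart and all genes. The PU.1 site AGAGGAAG was in 8.10% of promoters of genes at least 4-fold higher and in 4.43% of all, the AP-1 site TGANTCA in 9.37% and 5.98%, the GATA site AGATAAG in 4.30% and 2.20% and the interferon-stimulated response element in 5.06% and 3.21%. Shares below those of all promoters were found for the cyclic AMP response element TGACGTCA (0.506% and 2.79%) and the E-box CACGTG (6.84% and 9.15%). The octamer ATGCAAAT was in 2.28% and 1.56%, the EBF site in 1.27% and 1.01%, the C/EBP site TTNCGNAA in 2.28% and 3.31% and the NF-kB site in 4.30% and 4.82%. Both strands were searched, and motifs of overlapping letters were counted separately. Promoters of the genes at least 4-fold higher held a median of 7 CpG dinucleotides and those of all genes 18, and the medians for GC content were 54.7% and 59%. Among 50 promoters of genes at least 4-fold lower the median was 6 CpG. Of these 50, 4 each (8%) held the interferon-stimulated response element, the AP-1 site and the NF-kB site, and 3 (6%) the PU.1 site. The octamer, the EBF, GATA and C/EBP sites and the cyclic AMP response element were in 2 each (4%). All these shares were above those of all promoters, while the E-box (6%) and the CCAAT box (36% against 38.8%) were below. The 3 highest genes with a PU.1 site are printed with that site in capitals, since its share was above that of all promoters. They were Clec4d, a C-type lectin of myeloid cells (chr6:123261857-123262156, plus strand), Ppp1r3d, which directs a phosphatase to glycogen (chr2:178414414-178414713, minus strand), and Csf3r, the receptor of granulocyte colony-stimulating factor (chr4:126024409-126024708, plus strand).
Clec4d: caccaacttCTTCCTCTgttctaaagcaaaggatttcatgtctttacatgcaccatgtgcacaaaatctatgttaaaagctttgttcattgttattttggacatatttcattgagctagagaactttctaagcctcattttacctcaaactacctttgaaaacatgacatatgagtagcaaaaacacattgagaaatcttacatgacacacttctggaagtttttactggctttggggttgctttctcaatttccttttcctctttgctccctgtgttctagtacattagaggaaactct
Ppp1r3d: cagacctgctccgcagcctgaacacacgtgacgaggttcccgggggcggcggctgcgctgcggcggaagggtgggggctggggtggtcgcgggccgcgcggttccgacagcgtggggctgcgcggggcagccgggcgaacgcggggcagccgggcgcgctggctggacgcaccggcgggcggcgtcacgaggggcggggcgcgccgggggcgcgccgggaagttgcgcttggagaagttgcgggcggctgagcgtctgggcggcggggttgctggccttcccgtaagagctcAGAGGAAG
Csf3r: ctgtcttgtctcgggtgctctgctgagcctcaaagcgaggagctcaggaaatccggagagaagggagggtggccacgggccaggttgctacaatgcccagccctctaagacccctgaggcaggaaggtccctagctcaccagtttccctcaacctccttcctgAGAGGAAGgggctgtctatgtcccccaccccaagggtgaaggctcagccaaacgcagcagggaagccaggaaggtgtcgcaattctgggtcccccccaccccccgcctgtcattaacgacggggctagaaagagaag

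On the marrow arrays Clec4d had levels of 2.50 (KO) and -2.54 (WT), Ppp1r3d of 1.73 and -2.77, and Csf3r of 2.04 and -2.45. All 3 thus moved from below to above the 75th percentile of their array. In the spleen the differences of Clec4d, Ppp1r3d and Csf3r were 1.16, 1.06 and 0.27.

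Across the transcriptome the marrow arrays were alike for most genes and set apart by a long tail toward KO. Of the 20853 genes, 19003 were above background on both arrays, 676 on KO only and 1174 on WT only. The median measured difference was -0.05, the middle 50% of genes lay between -0.36 and 0.25, and 68.1% lay within 0.5 of 0. At least 2-fold higher were 1753 genes (8.41%) and at least 2-fold lower 1014 (4.86%), with 284 and 255 of them counted by a lower bound. The asymmetry grew with size, since at 4-fold 570 genes (2.73%) lay above WT and 104 (0.499%) below, or 3.23% of genes together. At 8-fold the counts were 192 (0.921%) and 15 (0.0719%), or 0.993% of genes together. At 16-fold they were 52 (0.249%) and 2 (0.00959%), or 0.259% together. Of the genes past 2-fold, 63.4% were higher, a share that was 52.6% when arrays were scaled by spike-in probes and 75.1% with cyclic loess. Where a gene past 2-fold had several measured probes, which held for 539 genes, all probes had the same sign for 443 and all passed 2-fold for 250.

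**Figure D1:**
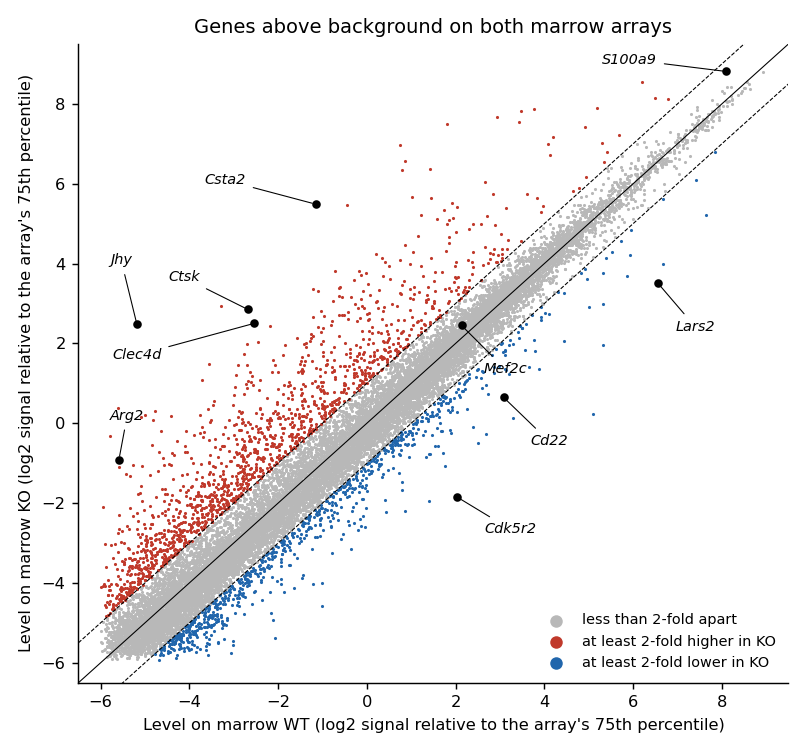
Level of each gene on marrow WT (x axis) and marrow KO (y axis), in log2 signal relative to the array's 75th percentile, for 19003 genes above background on both arrays, with 1 point a gene. The solid line marks equal levels and the dashed lines 2-fold. More and larger differences lie above the lines than below, and Mef2c lies close to the solid line.

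Among the 19003 genes above background on both arrays, the tail lay at middle and low level. These genes were put into 10 bins of equal size by mean level. Genes read as bounds, 284 of them higher past 2-fold and 255 lower, are not in the bins. The share at least 2-fold higher was 4.21% in the dimmest bin, 13.3% in bin 4, 12.3% in bin 5 and 3.16% in the brightest. The share at least 2-fold lower was largest in bin 2, with 6.74%, and smallest in the brightest bin, with 1.26%. The SD of the differences followed the same course, from 0.56 in the dimmest bin to 0.92 in bin 5 and 0.61 in the brightest. In the dimmest bin both levels had to lie above background, so large differences and the SD there were limited in advance. The 20 brightest genes were mainly ribosomal protein and histone H2A genes together with Ighm, the mu heavy chain, and S100a9, a calcium-binding protein of neutrophils. Of these 20 genes 0 were past 2-fold, and their median was -0.11. S100a9, at 8.81 on KO and 8.10 on WT, was the farthest apart with 0.71, and Rps23, the brightest of all, stood at 8.81 and 8.94.

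**Figure D2:**
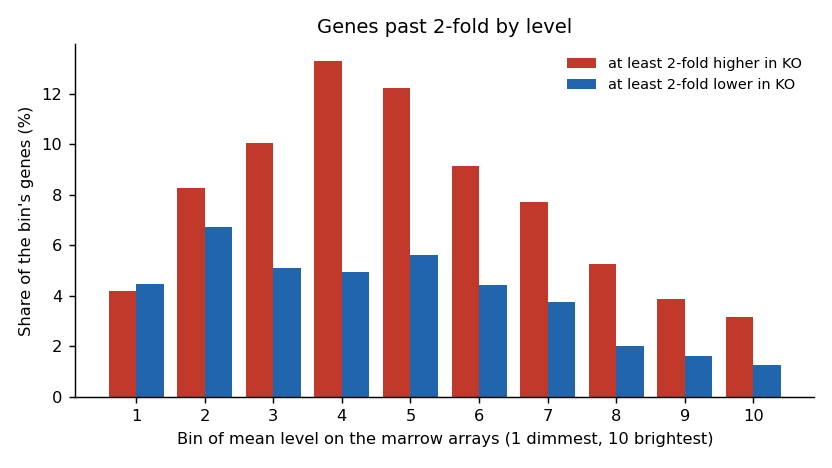
Share of genes at least 2-fold higher (red) and at least 2-fold lower (blue) on marrow KO, in percent of the genes of each bin (y axis), for 10 bins of equal size by mean level on both marrow arrays (x axis, dimmest first). Only the 19003 genes above background on both arrays are included. The share of higher genes peaks at 13.3% in bin 4 and is 3.16% in the brightest bin.

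The largest measured difference was that of Jhy, a gene needed for the cilia of the brain's lining, at 2.48 on marrow KO and -5.18 on marrow WT. In the spleen Jhy was at 1.01 on KO and not well above background on WT, a difference of at least 6.66. A cluster of stefin A genes, which encode small inhibitors of cysteine proteases, filled most of the next places, with Csta2 at 5.49 and -1.15, Cstdc4 at 6.97 and 0.75, Stfa2l1 at 6.58 and 0.87, and Stfa3 at 7.49 and 1.82. These genes are near-identical copies on chromosome 16, so the copy measured by each probe is uncertain. Among the 30 highest genes Retnlg (6.38 and 1.43), Cxcr2 (1.99 and -2.70), Mmp8 and Csf3r belong to the neutrophil marker list used here. The genes that follow are not on that list of 20, and which cells expressed them was not tested. Klk1b24, a tissue kallikrein with near-identical relatives, was at -0.32 and -5.79, and it was as far apart in the spleen, by at least 5.31. Nt5e, the ectoenzyme that makes adenosine from AMP, was at 0.16 and -5.08 and differed by 0.40 in the spleen. Pcolce2, an enhancer of procollagen processing, was at 0.20 and -5.00 and differed by 2.49 in the spleen.

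Some enzymes, transporters and proteases were also among the 30 highest genes. The gut disaccharidase gene Mgam stood at 1.48 on KO and -3.56 on WT, the chloride channel gene Clic6 at 0.30 and -4.77, and the sodium-proton exchanger Slc9b2 at 0.18 and -4.42. All 3 were low on WT and near the 75th percentile or above on KO. Arg2, the mitochondrial arginase, was at -0.91 and -5.59, and the skin protease gene Asprv1 at 3.36 and -1.22. Ctsk, the collagen-degrading cathepsin of osteoclasts, was at 2.85 and -2.68. The cathepsin Ctse differed by 4.52 in the marrow and 4.81 in the spleen, while Asprv1 differed by -0.30 in the spleen. Il1f9, a cytokine of the interleukin 1 family, was at 0.37 and -5.60 and not above background on either spleen array.

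**Figure D3:**
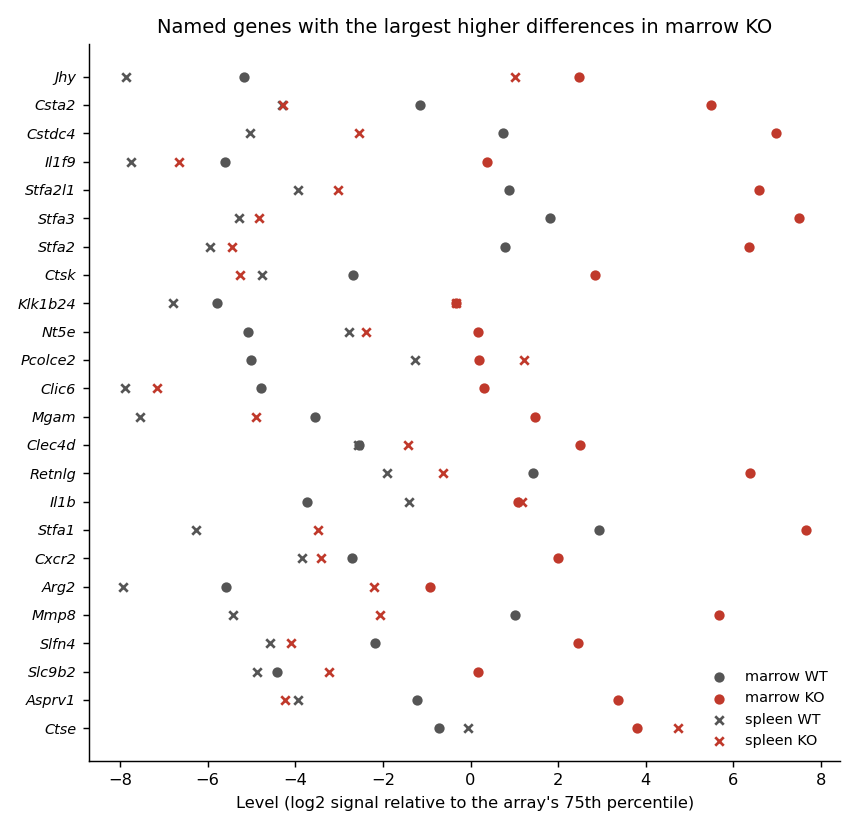
Level (x axis, log2 signal relative to the array's 75th percentile) of the 24 named genes with the largest measured marrow differences, on the 4 arrays, with circles for marrow, crosses for spleen, red for KO and grey for WT. Values not well above background are plotted as measured. Every marrow KO point lies right of its marrow WT point, by 7.66 for Jhy down to 4.52 for Ctse, whereas the spleen points of many genes lie close together.

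Some genes were above background on 1 marrow array only. Prok2, a chemokine-like ligand, was at least 94.2-fold higher on KO, and its other probe, above background on both arrays, differed by 6.57. Cd109, a surface protein that binds TGF-beta, was at least 29.4-fold higher, the lectin-like receptor gene Klra2 at least 25.6-fold, the glycosyltransferase gene Gcnt2 at least 25.3-fold and the kinase gene Hunk at least 16.3-fold. In the other direction Zfp125, a zinc finger gene, was at least 18.8-fold lower and Fam189a1 at least 8.08-fold lower. The KO side of Zfp125 rests on a signal under background, where its probe read -8.15.

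Groups of surface receptors held many higher members. Counts here and in the groups below stand beside 8.41% of all genes higher past 2-fold and 4.86% lower. All 8 measured paired immunoglobulin-like receptors, activating and inhibitory receptors of myeloid cells and B cells, were at least 2-fold higher, with a median of 2.83 against -0.05 for all genes. Pirb, the inhibitory member that binds MHC class I, stood at 5.74 on KO and 3.61 on WT, Lilrb4a at -0.09 and -3.72 and Pilra at 2.42 and -1.10. Their spleen differences were smaller, with a median of 0.78. Of 24 C-type lectins 11 were higher (7 with the least favourable scaling or background correction) and 0 lower, among them the fungal pattern receptors Clec7a (2.24 and -1.27) and Clec4e (0.92 and -2.97) and the DAP12-coupled Clec5a (3.41 and -0.59). Purinergic receptors, which sense extracellular nucleotides, were higher for 9 of 14 members with a median of 1.17. P2ry2 was at -2.45 and -5.15, P2ry1 at -1.33 and -3.32, and P2ry12, the ADP receptor of platelets, at -2.06 and -3.84. With spike-in scaling, quantile normalization, cyclic loess, median scaling or normexp background the purinergic count lay between 5 and 9.

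Other receptor families held single members far apart. The formyl peptide receptor genes Fpr1 (3.32 on KO and -1.10 on WT) and Fpr2 (3.76 and -0.02), chemoattractant receptors for bacterial peptides, were the only members measured. Cd300lf, an inhibitory receptor, differed by 4.03, and 3 of 9 genes of its family were higher and 1 lower. Among 19 Fc receptors and adaptors 5 (26.3%) were higher and 3 (15.8%) lower, against 8.41% and 4.86% of all genes. The IgG receptors Fcgr3 (2.94 and -0.10) and Fcgr4 (0.96 and -1.86) and their signalling chain Fcer1g (3.11 and 1.04) were higher, whereas Fcer2a, the IgE receptor of mature B cells (-2.20 and 0.85), and Fcmr, the IgM Fc receptor (3.78 and 5.33), were lower. The other 11 members lay within 2-fold or had no bound past it, and the median was -0.07. Of 15 TRP channels 6 were higher and 0 lower, although the median of measured members was -0.07, 5 values were bounds and the number higher ran from 2 to 7 across scalings and background correction, with Trpm2, a calcium channel gated by ADP-ribose, at 1.97 and -1.85. Of 20 TNF receptor genes 4 were higher and 0 lower, with Tnfrsf1a at 3.07 and 0.24, and of 9 TNF ligand genes 4 were higher (2 to 4 across scalings and background correction) and 0 lower. Tnfsf11, the osteoclast differentiation factor RANKL, was at -2.30 and -5.60, and Tnfsf14 at 0.87 and -2.71.

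Some genes of lipid mediator synthesis and reception were higher. Of 20 eicosanoid genes 8 (40%) were higher past 2-fold and 0 lower, against 8.41% and 4.86% of all genes. Their median was 0.63. Alox5, the lipoxygenase that starts leukotriene synthesis, was at 3.59 on KO and -0.28 on WT, and Alox5ap, its activating protein, at 4.99 and 1.80. Ltb4r1, the leukotriene B4 receptor, was at 4.14 and 0.35. The prostaglandin enzymes Ptgs1 (1.31 and -0.74) and Ptges (-2.91 and -4.67) and the receptor Ptger2 (-1.52 and -3.67) differed by about 2. In the spleen Alox5 differed by 0.39, Alox5ap by 0.29 and Ltb4r1 by -0.79.

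Sugar and lipid metabolism showed higher levels at particular steps. Of 27 glycolysis genes 7 were higher and 0 lower, and the median was 0.34. The lactate exporter Slc16a3 was at 3.38 and -0.64, the glucose transporter Slc2a3 at 2.99 and 0.56, the hexokinase Hk3 at 1.91 and -0.74 and the regulatory enzyme Pfkfb4 at 3.04 and 0.21. These act at entry, regulation and exit of the pathway, and the other 20 genes lay within 2-fold. The first oxidative steps of the pentose phosphate pathway, which supply NADPH, were higher, with G6pdx at 4.28 and 2.39 and Pgd at 3.98 and 2.62, and the median of its 8 genes was 0.90. Of 28 citric acid cycle genes 1 was higher and 1 lower, and of 19 fatty acid oxidation genes 0 were past 2-fold. Lipid storage genes were higher for 8 of 20 and lower for 1, with the triglyceride enzyme Dgat2 at 3.32 and -0.08 and the lipase inhibitor G0s2 at 0.03 and -2.78. Of 26 genes of cholesterol synthesis and uptake 4 (15.4%) were higher and 0 lower, against 8.41% and 4.86% of all genes. Scd1, a fatty acid desaturase, was lower, at 1.44 and 2.97.

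Redox genes included both producers and consumers of oxidants. Of 7 subunits and regulators of the phagocyte NADPH oxidase 4 were higher and 0 lower, their median was 1.11, and the catalytic subunit Cybb stood at 4.10 on KO and 2.28 on WT. Of 26 glutathione and antioxidant genes 7 (26.9%) were higher and 1 (3.85%) lower, against 8.41% and 4.86% of all genes. Gsr, glutathione reductase, was at 4.45 and 0.85, the peroxiredoxin Prdx5 at 3.66 and 2.07 and the cystine transporter Slc7a11 at least 8.26-fold higher. Haptoglobin (Hp), which binds free haemoglobin, was at 6.04 and 2.67, and the iron exporter Slc40a1 at 2.90 and 1.46.

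Proteases, their inhibitors and plasma protein cascades were higher in many members. Over all genes 8.41% were higher past 2-fold and 4.86% lower. Of 16 matrix metalloproteinases 6 were higher and 1 lower, with Mmp8 (5.67 on KO and 1.01 on WT), Mmp9 (3.81 and -0.18), Mmp25 (-0.45 and -4.28) and the collagenase Mmp13 (1.71 and -1.89) each differing by more than 3. Adam8, a surface metalloprotease, was at 5.22 and 1.22. Of 25 complement genes 9 were higher (5 to 13 across scalings and background correction) and 1 lower, with C3, the central component, at 5.09 and 1.85. Cr2, the complement receptor of mature B cells, was the lower member, at -2.69 and -0.99. Of 24 coagulation and fibrinolysis genes 12 were higher and 2 lower, around a median of 0.82, among them Anxa2, a receptor for plasminogen activation (3.33 and 0.28), and Plaur, the urokinase receptor (3.14 and 0.97). Annexins, which bind membranes in the presence of calcium, were higher for 6 of 11 genes, with Anxa1 at 7.18 and 4.19 and Anxa3 at 4.04 and 0.40. Of 25 inflammasome genes 8 were higher and 0 lower, with the pyrin gene Mefv at -0.39 and -3.42 and the flagellin sensor gene Naip2 at 0.36 and -1.76.

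Developmental signalling genes, most of them dim, were higher in part of each pathway. The shares of all genes past 2-fold were 8.41% higher and 4.86% lower. Of 38 Wnt genes 9 were higher and 1 lower, of 36 TGF-beta and BMP genes 8 and 1, of 38 receptor tyrosine kinases 8 and 1, of 32 growth factors 10 and 2, and of 32 Notch genes 5 and 2. Across the other scalings and background correction the number higher ran from 5 to 11 for Wnt, 5 to 9 for TGF-beta, 5 to 12 for receptor tyrosine kinases, 2 to 11 for growth factors and 1 to 8 for Notch. The medians of the Wnt (0.08), TGF-beta (0.08) and Notch (0.07) lists were near 0 and became negative with spike-in scaling. Examples were the receptor Lgr4 (-1.57 on KO and -3.67 on WT), the activin chain Inhba (1.05 and -1.76), the matrix protein Tgfbi (3.21 and 0.06) and the receptors Igf1r (0.61 and -1.42) and Pdgfrb (-0.22 and -2.39). Fgf2 ran the other way, at least 4.59-fold lower. Of 25 imprinted genes 6 were higher and 0 lower, with Igf2 at -1.58 and -4.14, Mest at -0.47 and -2.45 and Grb10 at -0.65 and -2.26. Cell adhesion and junction genes that mark no blood cell were among the dim higher genes, with Cdh2 at -2.77 and -5.15 and the connexin Gja1 at -2.51 and -5.03. The difference of Cdh2 changed sign with the median over its probes. Stromal markers were higher in the same comparison, for 13 of 20 genes with a median of 1.55, and their part in these values was not tested.

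Transcription factor families differed in the share of members past 2-fold, which was 8.41% higher and 4.86% lower over all genes. Of 29 Fox factors 4 were higher and 1 lower, with Foxd4 at -1.07 on KO and -5.08 on WT and Foxq1 at -1.89 and -0.11. Of 24 Hox factors 6 were higher and 2 lower, but 7 of the 24 were above background on 1 array only, and the number higher ran from 1 to 7 across scalings and background correction. Of 18 Sox factors 4 were higher and 2 lower, with 4 of the 18 read as bounds. Nfil3, a basic leucine zipper factor, was at 0.87 and -1.49, and the clock repressors Bhlhe40 (-1.74 and -0.70) and Bhlhe41 (-4.64 and -3.57) were lower. Of 333 zinc finger genes of the Zfp series 8 were higher and 10 lower, with Zfp36l2, a regulator of mRNA decay, at -4.23 and -1.87. Of 20 Mef2 family members and partners 0 were higher and 3 lower, led by Hdac9, a class IIa deacetylase that binds Mef2 proteins, at -0.78 and 1.43. In the spleen Hdac9 differed by 0.28.

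Of 300 solute carriers 36 (12%) were higher and 12 (4%) lower, near the 8.41% and 4.86% of all genes, with the median at -0.04. These counts ran from 24 to 39 and from 2 to 18 across scalings and background correction. Slco4c1, an organic anion transporter, was at -1.32 on KO and -5.33 on WT, the zinc transporter Slc39a4 at 0.64 and -2.24 and the organic cation transporter Slc22a4 at -1.29 and -4.16. Of 68 genes of the Rab GTPase family 14 were higher and 2 lower. The secretory Rab genes Rab3d (1.28 and -0.80) and Rab27a (1.37 and -0.29) and the large Rab44 (-0.39 and -2.64) were higher, whereas Rab30, a Golgi member, was at -2.56 and -0.13. Of 40 myosin genes 9 were higher and 1 lower, among them the class I myosins Myo1f at 2.61 and -0.41 and Myo1d at 1.57 and -1.49. St3gal5, which makes the ganglioside GM3, was at 4.86 and 2.29.

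Housekeeping machinery showed few or no members past 2-fold. Of 25 Polycomb genes, 26 histone lysine methyltransferases, 19 histone demethylases, 20 cohesin and architecture genes, and 17 genes of m6A RNA methylation 0 were past 2-fold in either direction, against 13.3% of all genes. Their differences ran from -0.87, in a histone demethylase, to 0.81, and the farthest of the Polycomb genes was Cbx7 (0.49 on KO and 1.23 on WT). These groups had median levels of 1.08 to 2.49 on WT, where fewer genes passed 2-fold than among all genes. From bin 7 to bin 9 of mean level, the share higher fell from 7.74% to 3.89% and the share lower from 3.74% to 1.63%. Of 39 splicing factors 1 was higher, Hnrnpll, a regulator of CD45 splicing, at -0.43 and -2.60. Of 30 ribosome biogenesis genes 1 was lower, Rrp12 (-3.17 and -1.88), and of 52 translation initiation factors 1 was higher, Eif4e3 (1.94 and 0.74). Of 15 microRNA processing genes the fetal RNA-binding protein gene Lin28a stood apart, at -1.58 and -5.08. The methyl-CpG binding genes Mbd2 (0.50 and 1.67) and Mbd3 (0.06 and 1.37) were the 2 lower of 17 DNA methylation genes, and 0 were higher. The 14 control genes all lay within 2-fold, with a median of 0.11.

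**Figure D4:**
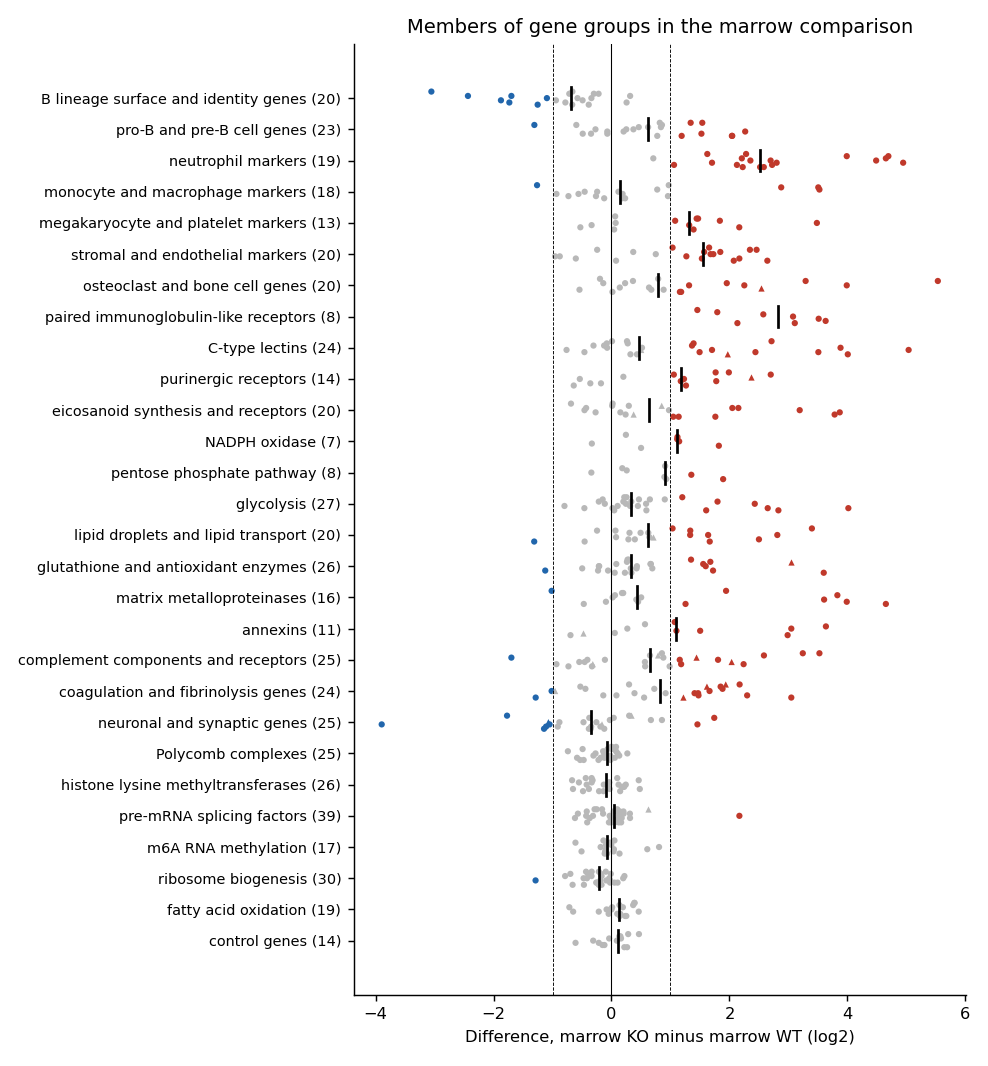
Difference between marrow KO and marrow WT (x axis, log2) for each measured member of 28 gene groups (y axis, with the number of members), as circles for genes above background on both arrays and triangles for lower bounds. Red and blue mark members at least 2-fold higher and lower, grey the rest, black bars the median of measured members and dashed lines 2-fold. Neutrophil markers (median 2.52) and paired immunoglobulin-like receptors (median 2.83) lie to the right, and the Polycomb, methyltransferase and RNA methylation groups stay within the dashed lines.

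Genes lower on the KO array were fewer and closer to WT. The lowest named gene was Cdk5r2, an activator of the neuronal kinase Cdk5, at -1.85 on marrow KO and 2.04 on marrow WT. In the spleen Cdk5r2 differed by -2.20. Eps8l1, a relative of the actin regulator Eps8, was at -4.57 and -1.02, the secreted amino acid oxidase gene Il4i1 at 0.13 and 3.29, the surface protein gene Vsig2 at -0.50 and 2.50, and the pseudokinase gene Prag1 at -4.75 and -2.17. All 4 were lower on spleen KO too, with differences of -2.49 for Il4i1 and -1.56 for Vsig2 and bounds for Eps8l1 and Prag1. Il33, an alarmin of tissue cells, was at -3.26 and -0.77 and not above background in the spleen. A gene of antibody-producing cells was lower as well, with Jchain, the joining chain of polymeric antibodies, at -2.60 and -0.05.

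Neuronal and synaptic genes leaned lower. Of 25 measured members 6 (24%) were lower and 2 (8%) higher, against 4.86% and 8.41% of all genes. Their median was -0.35. Syn1, a synaptic vesicle gene, was at 2.39 on KO and 3.50 on WT. The higher members were Gabbr1 (-0.52 and -2.26), whose 4 probes ranged from -0.65 to 1.74, and Syn2 (-3.94 and -5.40), whose difference changed sign with the median over its probes. With normalization and background alternatives the number of lower members lay between 3 and 8. Olfactory receptor genes, the largest family, were lower for 48 and higher for 7 of 536 members, with a median of -0.27. Nearly all were dim, 112 were above background on 1 array only, and the count of lower members ranged from 1 to 70 across the other scalings and background correction. The median stayed below 0 under each of these, between -0.39 and -0.04.

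Of 16 genes of the Ms4a family of membrane proteins 4 were lower and 1 higher, and the median was -0.20. Ms4a4d (-2.22), Ms4a4c (-0.58 on KO and 1.61 on WT) and Ms4a4b (-0.55 and 0.63) were lower in the marrow, and they were 1.30, 0.94 and 0.95 higher on spleen KO than on spleen WT. Another probe of Ms4a4b differed by 0.07 in the marrow. Ms4a3, a gene of granulocyte progenitors, was higher in the marrow, at 0.53 and -2.03. Among Schlafen genes Slfn4 (2.45 and -2.19), Slfn1 (-1.76 and -5.15) and Slfn3 (0.04 and -2.68) were higher, whereas Slfn8 (-3.46 and -2.35) and Slfn9 (-3.17 and -1.89) were lower, so that members of 1 cluster differed in opposite directions. Among phospholipases Pld1 (-0.60 and -3.43) and Pla2g7 (-0.17 and -2.89) were higher, and Pla2g2d and Plcd3 (-2.76 and -0.53) lower.

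Along the genome, lower genes lay in a run at the kappa light chain locus on chromosome 6. In a stretch of 3.23 Mb that ends at the flanking gene Rpia (70715710 to 70715770 on mm9), 82 named probes were measured, and all 82 were below 0. At least 2-fold lower were 62 of them (75.6%) and higher 0. Their median was -1.28, with the middle 50% between -1.49 and -1.03. Within 5 Mb on either side 2 of 74 genes were lower and 9 higher, and their median was -0.04. Rpia itself, an enzyme of the pentose phosphate pathway, differed by 0.18. The region and its edges were chosen after the values were seen, and variable segments share sequence, so the 82 probes are not independent readings.

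Named kappa segments were lower at both ends of the locus, by differing amounts. All 9 probes named as Igkv segments were at least 2-fold lower, from a difference just past 2-fold for Igkv3-4 (-0.22 on KO and 0.78 on WT), near the constant end, to -2.26 for Igkv9-120 (-1.46 and 0.80), near the distal end. Igkv14-111 stood at 0.28 and 2.04, Igkv4-55 at 0.20 and 1.56 and Igkv6-14 at -1.55 and -0.02. In the spleen 27 of 80 measured probes of the region passed 2-fold downward and 0 upward, and their median was -0.78. The probe named Asb2 (-2.22 and 0.43) also lies in this region by its coordinates, although the gene is on chromosome 12 in the reference table, so its value is not that of Asb2 alone, and its other probe differed by -0.91. Without the region chromosome 6 had 4.92% of 1077 genes lower, near the 4.86% of all genes, and with it 9.92% of 1159. With other scalings, background correction, filters and probe choices the median of the region lay between -1.39 and -1.09.

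**Figure D5:**
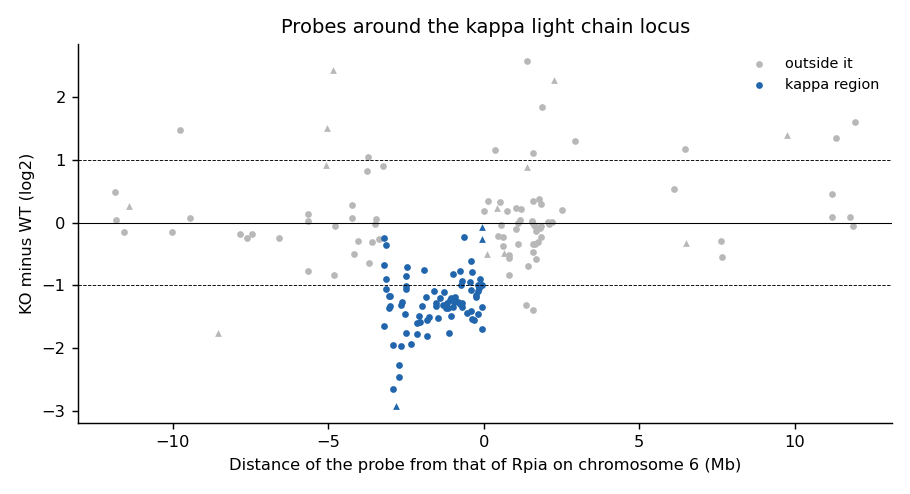
Difference between marrow KO and marrow WT (y axis, log2) of probes on chromosome 6 by their distance from the probe of Rpia (x axis, Mb), as circles where both arrays were above background and triangles for lower bounds. Blue marks the 82 probes of the kappa region, all below 0 with a median of -1.28, and grey the probes outside, with a median of -0.04 within 5 Mb.

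Part of the heavy chain locus was read over a fixed window, from 115 to 120 Mb of chromosome 12. This window also holds other genes and so is no match for the kappa region, whose edges followed its values. In it 13 of 62 probes lay at least 2-fold below WT and 4 above it, or 21.0% lower against 4.86% of all genes, and their median was -0.25. Of 2 named heavy variable segments 1 was lower, with values of -1.81 and 0.25. Ighm itself was at 8.38 on KO and 8.64 on WT, and its 3 probes differed by -1.26 to -0.26. The brightest Ighm probe starts at 114656861 on mm9, outside that window and in the adjoining stretch from 110 to 115 Mb. Only 7 of the 94 genes in this stretch (7.45%) passed 2-fold downward, 8 passed it upward, and the middle value was -0.21. Iglv1, the only named lambda segment, was at 6.61 and 7.03. Over whole chromosomes, 6.64% to 11.1% of genes were higher on each autosome and X. On Y 3 of 9 genes were lower and 1 higher. Ddx3y was at -0.53 and 1.06, and the sex of the animals is not given. The 5 Mb on either side of Mef2c held 18 measured genes with a median of 0.06. Among them Cox7c, a subunit of cytochrome oxidase, was higher (3.59 and 2.57), and the transcripts AK044272 (-4.39 and -3.14) and TC1666890 (-0.28 and 0.76) were lower. The neighbours Ccnh and Rasa1 each differed by 0.07.

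Ribosomal RNA and similar probes were lower on marrow KO, and so was a probe of a mitochondrial tRNA synthetase. Rn18s stood at 5.22 on KO and 7.65 on WT and Rn28s1 at -3.14 and -0.35. Lars2 stood at 3.51 and 6.56 and differed by -4.99 in the spleen. The brighter probe of Cox17, a copper chaperone, differed by -2.68 in the marrow and -4.98 in the spleen. Its other probe differed by 0.24 in the marrow, and for Rusc1 the marrow values were -2.52 and 0.16. Those single-probe differences are therefore not shared along the transcript, and their part in other differences was not tested.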

How the data were processed

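Total RNA of B220 cells was labelled with Cy3 and hybridised to 1-colour Agilent arrays of 60-base probes, 1 array a group. The deposited values are the processed spot intensity of Feature Extraction 10.5.1.1, per the file headers, which is background-subtracted and holds 45018 spots an array, and the authors' value table repeats it at every spot. Here the 43379 gene spots were kept, outlier spots were dropped, repeated spots were averaged on the log2 scale, and each array's 75th percentile was subtracted. Well above background were 70.4% of gene spots on marrow KO and 72.0% on marrow WT, and 0 were saturated. On spleen KO the share was 59.3% and on spleen WT 69.1%, and their 75th percentiles were signals of 520 and 970. Both marrow arrays lie on the same slide and scan. A gene was read by its brightest probe over all arrays. Where it was above background on 1 array only, its difference is a bound against the other array's lowest level above background or the probe's own level there, whichever is higher.

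Of 41174 probes, 25097 were named by accession, 6333 by symbol and 1640 by older symbol through RefSeq on GRCm38.p6, and 8104 kept the name in the file. Promoters came from the same source and matched 62.2% of measured genes. Python 3.11.15 and R 4.3.3 with limma 3.58.1 were used. The rule for named genes took the 30 highest and 30 lowest measured genes and the 10 largest bounds each way as candidates, then up to 6 members of a group past 2-fold or 2 others, farthest first, with genes near Mef2c past 2-fold and the 20 brightest genes, and left out genes whose probes opposed each other by over 1 log2 unit unless said. Blnk, Cd79b, Fcmr, Prss23, Rn18s, Rpia, Ccnh, Rasa1 and some Igkv segments were chosen after their values were seen. Members and lists were chosen with earlier results of these data known. The 12 alternatives cover scaling, background, filter, probe choice, threshold and the authors' table. The calculation was tested on simulated data. The arrays' number limits the precision.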

Additional observations from a re-analysis of the deposited data

Results flagged for a closer look

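Among the genes named above, 3 were at least 2-fold apart in opposite directions in marrow and spleen, with both arrays above background. Passing 2-fold was common in the spleen, where 3605 of 16370 measured genes were higher on KO and 2055 lower, with a median of 0.28. The share of all genes that ran in opposite directions was not counted. Ms4a4d differed by -2.22 in the marrow and 1.30 in the spleen. Myo1f, a class I myosin of leukocytes, differed by 3.02 in the marrow and -1.44 in the spleen, and the glucose transporter gene Slc2a3 by 2.43 and -1.02. With 1 array a group the difference between tissues was not tested.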

How the results depend on the processing

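No paired analysis was possible because each group had 1 array. The counts of genes higher and lower, 1753 and 1014, became 1040 and 342 with normexp background, 2941 and 3082 at 1.5-fold and 570 and 104 at 4-fold. Lower genes were 2065 and higher genes 2264 with no filter on dim probes. Of genes past the threshold, the share that was higher was 63.4%, and moved by over 10 points to 52.6% with spike-in scaling, 52.3% with no filter, 75.1% with cyclic loess, 75.3% with normexp, 48.8% at 1.5-fold and 84.6% at 4-fold. Spike-in scaling moved every gene by -0.12, and cyclic loess, which depends on level, moved the median gene by 0.14. With normexp Cox17 had another sign, 0.24. With the median over probes Cdh2 (-0.40) and Syn2 (-0.50) changed sign, and with the brightest marrow probe Ms4a4b did (0.0712). These probe settings change only which probes are read, and the cause for Cox17 was not tested. Of the 158 group medians 60 had another sign under some scaling, 2 of them at least 0.2 from 0. Dim genes are limited by signal over background.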
